A study of Mus musculus with 9 samples.

Results

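Phospholipid scramblases move lipids in both directions between the leaflets of a membrane and so undo the uneven lipid distribution that cells maintain. The genes described here are 6 that encode proteins of this kind or named for it: Plscr1, Plscr2, Plscr3 and Plscr4 of the phospholipid scramblase family, Xkr8 and Ano6. They were chosen by name around Plscr2, which was picked because it read far lower with both hairpins against Ebf1. The values of Plscr2 are therefore given as a description, without a test, and the other 5 genes, chosen by name, were tested. All 6 were on the array, with 12 probe sets among the 34945 that name 1 gene, and as genes they are 6 of 18193.

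The study measured mRNA in 3T3-L1 cells, a mouse preadipocyte line that turns into fat cells in culture, with 3 arrays for each of 3 groups. Every group was made of mature cells infected serially with lentivirus, 3 to 4 times, and held in puromycin at 5 µg/ml for 8 days or longer. The groups differed in the hairpin: a scrambled control, shEbf1 hairpin 1 or shEbf1 hairpin 2, which target the transcription factor gene Ebf1. All 3 groups thus share the viral infection and the drug, and no uninfected cells were analysed here. The labels call the arrays of a group repeats and do not say whether each came from its own culture, so the p-values below rest on a spread between arrays that may be technical only.

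The uneven distribution of lipids is kept by flippases, which are P4-type ATPases that pull phosphatidylserine and phosphatidylethanolamine to the inner leaflet. When scramblases are switched on, phosphatidylserine reaches the cell surface, where it starts blood clotting on platelets and marks dying cells for engulfment. Ano6 (TMEM16F) is switched on by calcium, and Xkr8 by caspase cleavage during apoptosis. The PLSCR proteins bind calcium and were named for scrambling activity seen in purified preparations, and PLSCR1 is best known as an interferon-induced protein with antiviral activity. PLSCR3 is found in mitochondria, where it has been linked to the transfer of cardiolipin.

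Values are log2 signals, 1 per probe set and array, and a difference of 1 is a 2-fold change. They ran from 3.90 to 15.0, with array medians of 6.31 to 6.38. For each gene the probe set with the highest mean was used, and genes whose mean over the 9 arrays reached 5.72 were tested with limma, 12735 in all. A gene was called when its Benjamini-Hochberg adjusted p was below 0.05. All 6 scramblase genes passed that filter, as did 11 of their 12 probe sets in a separate fit over 31526 probe sets. Ebf1 itself read 10.12, 10.15 and 10.31 with the scrambled hairpin, 9.32, 9.54 and 9.45 with hairpin 1, and 8.90, 8.72 and 9.20 with hairpin 2, every hairpin array being below every scrambled one. Ebf1 fell with hairpin 1 (log2 difference -0.75, adjusted p = 0.000102) and hairpin 2 (-1.25, adjusted p = 2.98e-07).

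The cells carried fat cell mRNA in all groups. Adipoq, the adiponectin gene, read 14.82 ± 0.02, 14.80 ± 0.01 and 14.81 ± 0.01 with scrambled, hairpin 1 and hairpin 2 (SD, n = 3 each), while Lep, the leptin gene, was below the filter. The log2 of the summed signal of 6 adipocyte markers lay between 16.57 and 16.61 on all arrays, a sum carried by genes near the top of the signal range that has little room to move. Cidec, a lipid droplet gene on that list, fell with hairpin 2 (-0.25, limma adjusted p = 0.00255). The summed level of 5 preadipocyte or fibroblast markers was 12.40 to 12.59 with scrambled, 13.00 to 13.19 with hairpin 1 and 13.29 to 13.42 with hairpin 2, although Dlk1, one of them, rose with hairpin 1 (0.70) and fell with hairpin 2 (-0.83, adjusted p = 0.00157). That of 6 macrophage markers was 10.15 to 11.04, 9.52 to 10.01 and 9.20 to 9.88, and its defining members Adgre1, Ptprc and Itgam were below the filter. Laptm5, the member with the highest signal, fell with both hairpins (-1.22 and -1.82), and Csf1r was not called (0.08 and 0.18). Cd68 rose with hairpin 2 (1.18, limma adjusted p = 3.3e-07). Its means were 5.67 with scrambled, 5.65 with hairpin 1 and 6.84 with hairpin 2. The scrambled and hairpin 1 means of Cd68 lie below the filter level, so it was tested only because of its hairpin 2 arrays. Both sums move with the groups in which scramblase genes differed, and their part in the results below was not tested. In bulk RNA, fewer cells of a type and less RNA per cell cannot be told apart.

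Plscr2 was among the genes that differed most from the control, and it was near the bottom of the signal range with both hairpins. Its probe set, 1448961_at, read 9.20, 9.01 and 8.75 with the scrambled hairpin, 5.11, 5.03 and 4.85 with hairpin 1, and 4.70, 4.86 and 4.77 with hairpin 2. Every scrambled array was above every hairpin array by more than 3 log2 units, while the arrays of the 2 hairpins overlapped.

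The mean signal of Plscr2 was 8.99 ± 0.23, 5.00 ± 0.13 and 4.78 ± 0.08 (SD, n = 3 each), which is 15.9-fold lower with hairpin 1 and 18.5-fold lower with hairpin 2 (log2 differences -3.99 and -4.21). Both hairpin means lie below the filter level of 5.72, so the gene was tested only because of its scrambled arrays, and folds near the floor are compressed. Among all probe sets, its level was at percentile 76.8 with scrambled, 19.1 with hairpin 1 and 12.0 with hairpin 2.

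Ranked by difference from scrambled, Plscr2 was number 2 from the lowest of 12735 genes with hairpin 1, between the chemokine genes Ccl5 (-5.55) and Cxcl10 (-3.98). With hairpin 2 it was number 16, between Melk (-4.43), a kinase gene, and the antiviral gene Oas2 (-4.16). The 2 hairpin means of Plscr2 differed by -0.22.

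**Figure D1:**
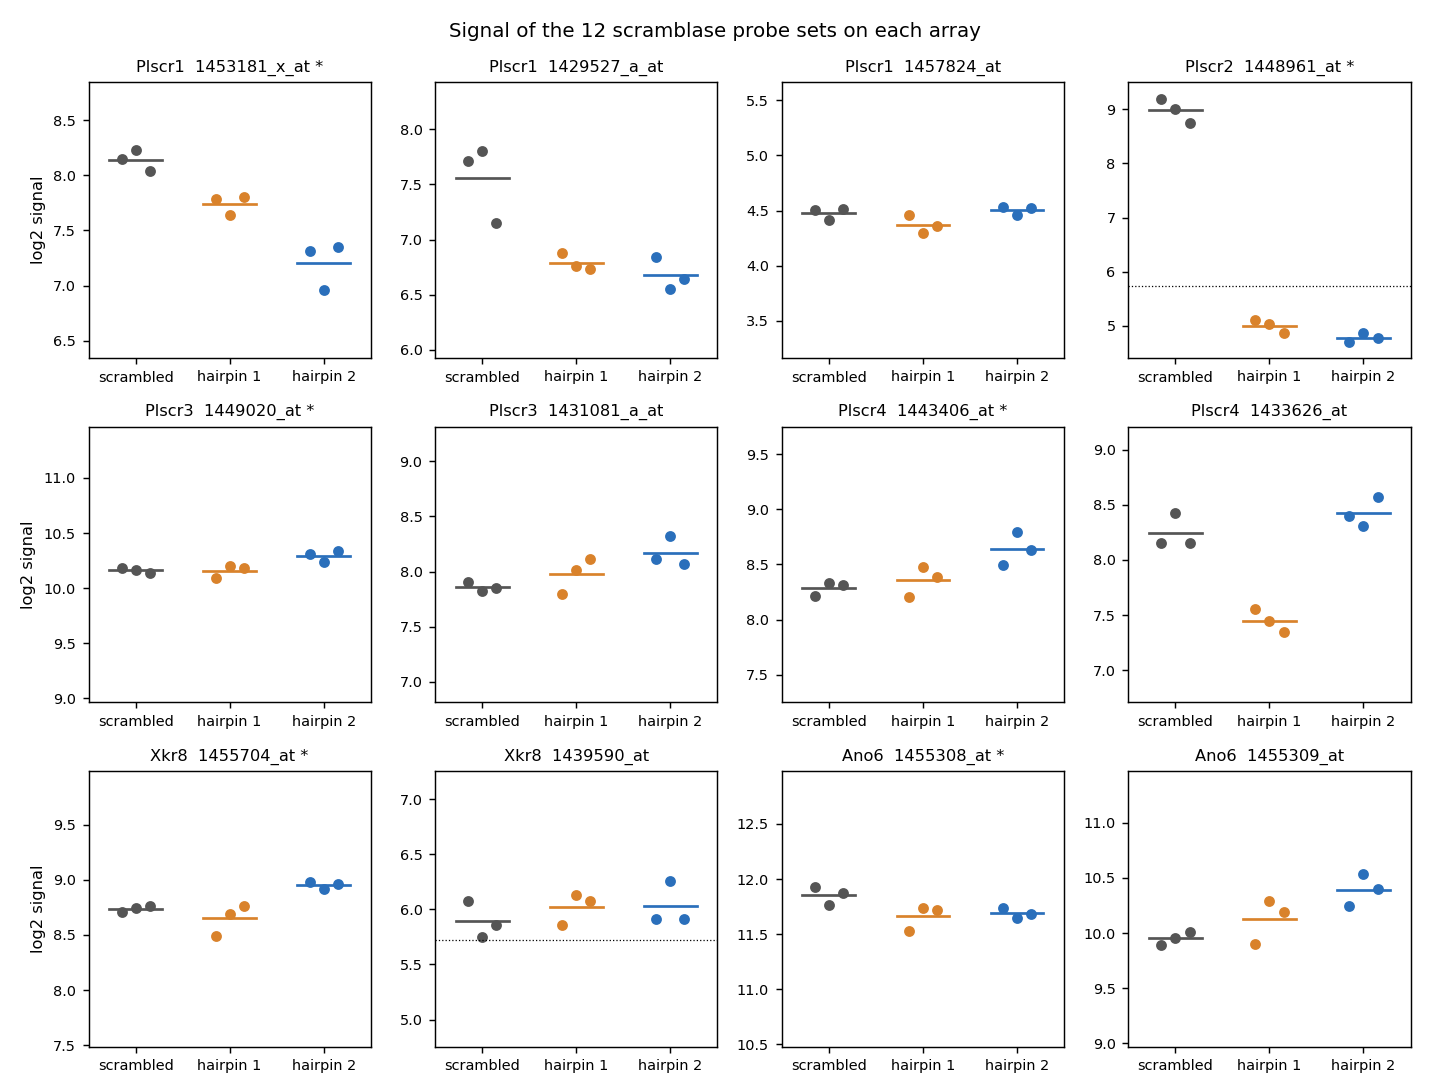
Log2 signal of each of the 12 scramblase probe sets on the 9 arrays, by group; points are arrays and bars are group means, each panel has its own range on the vertical axis, and a dotted line marks the filter level of 5.72 where it falls within the range. An asterisk marks the probe set used for the gene; Plscr2 drops from about 9 to about 5 in both hairpin groups, and Plscr1 is lower with both hairpins on 2 of its 3 probe sets.

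Plscr1, the interferon-induced member, fell with both hairpins, and further with hairpin 2. On 1453181_x_at, the probe set used for the gene, it read 8.15, 8.23 and 8.04 with scrambled, 7.78, 7.64 and 7.80 with hairpin 1, and 7.31, 6.96 and 7.35 with hairpin 2. The 3 groups did not overlap, and their order was scrambled, hairpin 1, hairpin 2. Plscr1 was 1.32-fold lower with hairpin 1 (log2 difference -0.40, SE 0.109, limma adjusted p = 0.0103) and 1.91-fold lower with hairpin 2 (-0.93, SE 0.109, adjusted p = 5.05e-06). The direct comparison of hairpin 2 with hairpin 1 gave -0.53 (limma adjusted p = 0.00155). The hairpin 1 call was lost without the second scrambled repeat (-0.35, limma adjusted p = 0.0533).

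A different grading was seen on 1429527_a_at, another Plscr1 probe set. It read 7.71, 7.81 and 7.15 with scrambled, 6.88, 6.76 and 6.73 with hairpin 1, and 6.84, 6.55 and 6.64 with hairpin 2. The scrambled arrays stood above all hairpin arrays, the third of them least, and the hairpin groups overlapped. This probe set fell by 0.77 with hairpin 1 (limma adjusted p = 0.00181 over all probe sets) and by 0.88 with hairpin 2 (adjusted p = 0.000436), and the hairpins differed by -0.11 (95% interval -0.43 to 0.20, adjusted p = 0.663). With all Plscr1 probe sets averaged, the difference between hairpins was -0.17 and was not called (limma adjusted p = 0.162). That average includes 1457824_at, a probe set below the filter.

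The third Plscr1 probe set, 1457824_at, lay between 4.30 and 4.53 on all arrays and was below the filter. In Affymetrix names the ending _x_at marks probe sets with probes that can match other transcripts, and _a_at those that match several transcripts of 1 gene. Whether 1453181_x_at also reads Plscr2 RNA, a paralog that is lower in the same groups, was not tested.

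The DNA before the start of Plscr1 is shown beside that of Plscr4, its relative in the same gene cluster, because 1 of them fell with both hairpins and the other did not. Both are the 250 bases before the annotated start, on the + strand of GRCm38.p6, at chr9:92249944-92250193 for Plscr1 and chr9:92457128-92457377 for Plscr4, from RefSeq, which gave windows for 4 of the 6 genes (Plscr1, Plscr3, Plscr4 and Ano6, but not Plscr2 or Xkr8). Capitals mark matches to any of the motifs named after the sequences.
Plscr1: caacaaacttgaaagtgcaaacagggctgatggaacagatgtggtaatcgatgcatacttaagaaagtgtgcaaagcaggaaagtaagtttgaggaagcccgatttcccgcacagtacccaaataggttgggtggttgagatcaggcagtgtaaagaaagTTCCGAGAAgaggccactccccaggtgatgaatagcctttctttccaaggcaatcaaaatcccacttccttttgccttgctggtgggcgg
Plscr4: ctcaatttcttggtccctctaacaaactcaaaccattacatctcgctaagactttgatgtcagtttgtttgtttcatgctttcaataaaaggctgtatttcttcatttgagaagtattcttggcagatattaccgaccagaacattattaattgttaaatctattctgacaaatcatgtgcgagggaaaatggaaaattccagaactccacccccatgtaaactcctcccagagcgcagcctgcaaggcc

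These windows were searched, with the 50 bases after the start, on both strands for 3 patterns. They were the EBF palindrome, TCCC and GGGA with any 2 bases between; the core of the interferon response element, GAAA repeated after any 2 bases; and the core of the site bound by activated STAT dimers, TTCNNNGAA. Of these, the first and the third read the same on both strands, and no matches overlapped. The single match in the 6 windows of the 4 genes was TTCCGAGAA, a STAT-type core from base -90 to base -82 of Plscr1, counted back from the start. Of all 32851 windows of that length in the table, 8.30% held this pattern, 3.44% the interferon element core and 0.904% the EBF palindrome. A match of letters is a description and not a binding site, and its absence says only that these letters are not in the window.

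Plscr4 gave a different picture on each of its 2 probe sets with hairpin 1. On 1443406_at, the probe set used for the gene, it read 8.21, 8.33 and 8.31 with scrambled, 8.20, 8.48 and 8.39 with hairpin 1, and 8.49, 8.79 and 8.63 with hairpin 2. The hairpin 2 arrays were all above the scrambled and the hairpin 1 ones, the latter by a narrow margin (8.49 against 8.48). The hairpin 1 arrays overlapped the scrambled ones. Plscr4 rose 1.28-fold with hairpin 2 on this probe set (log2 difference 0.36, SE 0.101, limma adjusted p = 0.0111) and was not called with hairpin 1 (0.07, adjusted p = 0.621). The hairpin 2 call was lost without the first scrambled repeat (0.32, limma adjusted p = 0.0571) or the second repeat of hairpin 2 (0.28, 0.0599).

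On the other Plscr4 probe set, 1433626_at, the values were 8.15, 8.42 and 8.15 with scrambled, 7.56, 7.45 and 7.34 with hairpin 1, and 8.39, 8.30 and 8.57 with hairpin 2. Here the hairpin 1 arrays stood below all others and the scrambled and hairpin 2 arrays overlapped. This probe set fell by 0.79 with hairpin 1 (1.73-fold, limma adjusted p = 0.000148 over all probe sets) and did not pass with hairpin 2 (0.18, adjusted p = 0.266). Hairpin 2 was above hairpin 1 by 0.97 (SE 0.109, limma adjusted p = 2.86e-05). On 1443406_at the same comparison gave 0.28 (limma adjusted p = 0.0462), a call that was lost without a low-signal filter (0.0695) and without any 1 of 7 arrays, among them all 3 scrambled ones (0.0628 to 0.181).

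The gap between both Plscr4 probe sets, set to a mean of 0 on the scrambled arrays, ran from -0.14 to 0.12 there; it was 0.61 to 1.00 on the hairpin 1 arrays and 0.02 to 0.45 on those of hairpin 2. The probe sets thus changed unequally with hairpin 1 on every array. When the 2 were averaged, Plscr4 was lower with hairpin 1 (-0.36, limma adjusted p = 0.0024). Probe positions were not used here, and which Plscr4 transcripts each of them reads was not tested.

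Plscr3, the mitochondrial member, differed little. On 1449020_at it read 10.18, 10.17 and 10.13 with scrambled, 10.09, 10.20 and 10.18 with hairpin 1, and 10.31, 10.23 and 10.34 with hairpin 2. The hairpin 2 arrays were all above the others, by a small margin, and scrambled and hairpin 1 overlapped. Neither difference from scrambled passed the test (-0.0039 with hairpin 1, limma adjusted p = 0.976, and 0.13 with hairpin 2, 95% interval -0.03 to 0.29, adjusted p = 0.198). The other probe set, 1431081_a_at, rose with hairpin 2 by 0.31 (limma adjusted p = 0.0469 over all probe sets), a call lost under 3 other settings and without any 1 of 6 arrays (0.0517 to 0.183). It read 7.90, 7.82 and 7.86 with scrambled and 8.11, 8.33 and 8.07 with hairpin 2, with no overlap.

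Xkr8, the caspase-activated scramblase, was slightly higher with hairpin 2 than with hairpin 1. On 1455704_at it read 8.71, 8.74 and 8.77 with scrambled, 8.49, 8.69 and 8.77 with hairpin 1, and 8.98, 8.92 and 8.96 with hairpin 2. The hairpin 2 arrays were above all others. Hairpin 2 exceeded hairpin 1 by 0.30 (SE 0.0899, limma adjusted p = 0.0184), and neither hairpin passed against scrambled (-0.09, adjusted p = 0.492, and 0.22, 95% interval 0.02 to 0.41, adjusted p = 0.078). Leaving out hairpin 2 repeat 1 ended the call between hairpins (0.29, limma adjusted p = 0.0598). The other probe set, 1439590_at, lay close to the filter, between 5.75 and 6.26 on all arrays. Its group means differed by at most 0.14, with no call (lowest limma adjusted p = 0.395 over all probe sets, for the mean of both hairpins).

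Ano6, the calcium-activated scramblase, gave differences of opposite sign on its 2 probe sets, which the platform table assigns to the same source sequence. On 1455308_at it read 11.92, 11.77 and 11.88 with scrambled, 11.53, 11.74 and 11.71 with hairpin 1, and 11.74, 11.65 and 11.68 with hairpin 2. All scrambled arrays were above all hairpin arrays, by as little as 0.03. Ano6 fell 1.15-fold with hairpin 1 (log2 difference -0.20, SE 0.0698, limma adjusted p = 0.0417) and did not pass with hairpin 2 (-0.17, adjusted p = 0.0803). The hairpin 1 call was not kept in the fit over all probe sets (adjusted p = 0.0609), without any 1 of 6 arrays (0.0533 to 0.176) or with both probe sets averaged (-0.01, 0.936).

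On 1455309_at, Ano6 read 9.89, 9.95 and 10.01 with scrambled, 9.90, 10.29 and 10.19 with hairpin 1, and 10.25, 10.54 and 10.40 with hairpin 2. The hairpin 2 arrays were all above the scrambled ones. This probe set rose by 0.44 with hairpin 2 (SE 0.106, limma adjusted p = 0.00669 over all probe sets) and was not called with hairpin 1 (0.17, adjusted p = 0.272). The gap between both Ano6 probe sets, set to a mean of 0 on scrambled arrays, was -0.45 to -0.28 with hairpin 1 and -0.79 to -0.41 with hairpin 2, against -0.09 to 0.13 with scrambled.

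**Figure D2:**
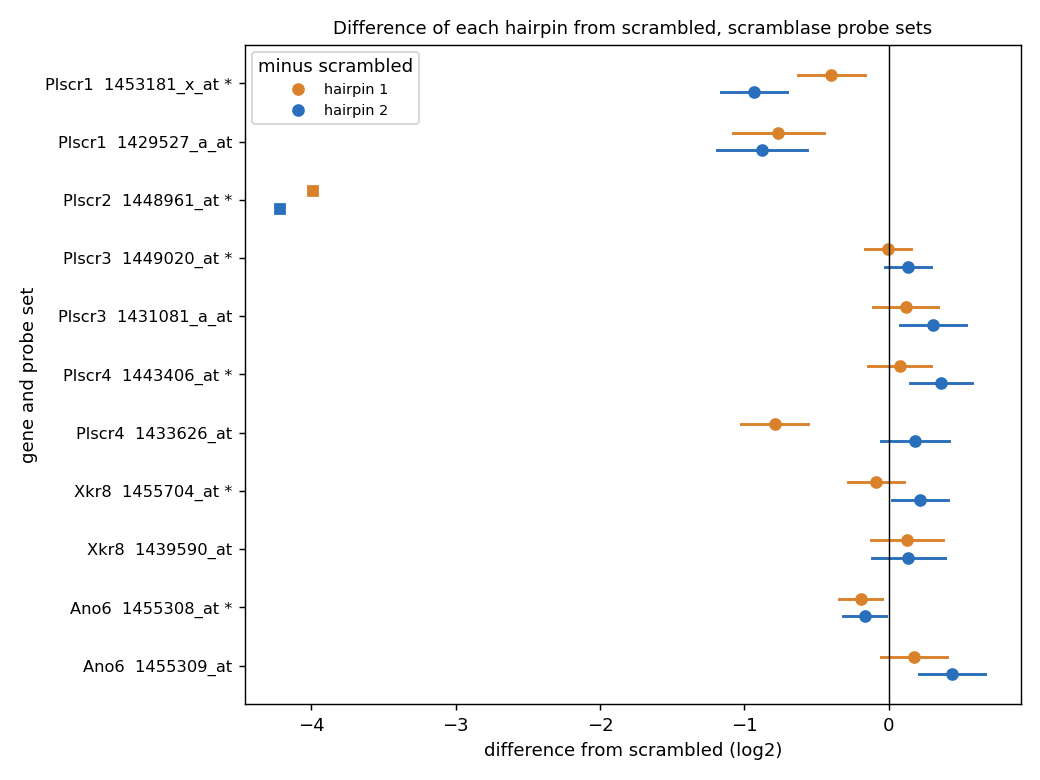
Log2 difference of hairpin 1 and hairpin 2 from scrambled for the 11 scramblase probe sets above the filter, as points, with 95% intervals from limma as lines; asterisks mark the probe sets used for genes, fitted over genes, and the others come from the fit over all probe sets. Plscr2, drawn as squares without an interval because it was chosen for this difference, lies at -3.99 and -4.21, Plscr1 lies below 0 on both probe sets, and Plscr4 and Ano6 differ between their probe sets.

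Of the 5 genes chosen by name, 2 were called with hairpin 1 (Plscr1 and Ano6, both lower) and 2 with hairpin 2 (Plscr1 lower, Plscr4 higher). Over all genes tested, 33.0% were called with hairpin 1 and 34.8% with hairpin 2, so these counts are near the background. Between the hairpins 3 of 5 were called, Plscr1 lower and Plscr4 and Xkr8 higher with hairpin 2, beside 29.1% of all genes (11.6% higher and 17.4% lower). In the mean of both hairpins Plscr1 (-0.67) and Ano6 (-0.18) were lower than in scrambled, 2 of 5 called beside 34.6%. The other Ano6 probe set, 1455309_at, was called higher in that contrast (0.31, limma adjusted p = 0.024 over all probe sets). With both Ano6 probe sets averaged there was no call (0.063, limma adjusted p = 0.512). In the fit over probe sets, 10 belong to these 5 genes. Of them 3 fell and 0 rose with hairpin 1, 2 fell and 3 rose with hairpin 2, and 1 was lower and 2 higher with hairpin 2 than with hairpin 1, beside 22.7%, 26.0% and 19.3% of all probe sets. The Ano6 call with hairpin 1 and the Plscr4 call on 1443406_at between hairpins were not among these. Both comparisons with scrambled use the same 3 control arrays.

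The pattern of Plscr2, nearly equal with both hairpins, was set beside genes that interferon induces. Of 17 such genes listed, 15 were measured with a single gene name, and all 15 fell with each hairpin, with a median of -1.80 with hairpin 1 and -4.16 with hairpin 2 (lower calls made up 9.23% and 13.3% of all genes). In the direct comparison 14 of the 15 were lower with hairpin 2 (17.4% of all genes), with a median of -2.10, whereas the means of Plscr2 differed by -0.22. The remaining gene, Ifit2, also fell nearly equally with both hairpins (-2.36 and -2.64), to means of 9.74 and 9.46. Its difference between hairpins was not called (-0.28, limma adjusted p = 0.109). Mx1, an antiviral GTPase gene, fell with both hairpins (-3.63 and -4.94), as did Usp18 (-1.93 and -4.49), which encodes a protease that removes the ubiquitin-like protein ISG15. That these genes fall was known when the list was drawn up. Plscr2 was at 5.00 with hairpin 1, near the floor of 3.90, so a further decrease with hairpin 2 could not be fully measured.

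Likeness across the 9 arrays was ranked by Pearson correlation of log2 signal among the 12735 genes tested, skipping gene models without a proper name. The genes most like Plscr2 were Colec11 (r = 0.996), Kcnab1 (0.995), Dtd1 (0.994), Naa16 (0.994) and Oasl1 (0.992). Colec11 encodes a soluble lectin, Kcnab1 a potassium channel subunit, Dtd1 a deacylase that clears mischarged transfer RNA, Naa16 a subunit of a protein N-terminal acetyltransferase and Oasl1 a relative of the antiviral oligoadenylate synthetases. Being chosen for likeness to Plscr2, they share its near-equal differences with both hairpins by that choice, as for Dtd1 (-1.91 and -2.01, from 12.34 to 10.43 and 10.33). For Plscr1 they were Gtpbp4 (0.992), Rpap3 (0.979), N4bp1 (0.979), Xrn1 (0.979) and Rnf125 (0.978), genes that read lower with hairpin 2 than with hairpin 1. Gtpbp4 encodes a GTPase of ribosome assembly and Xrn1 a 5′-to-3′ exoribonuclease, with differences of -0.37 and -0.76, and -0.47 and -1.21. These arrays differ mainly by group, which all such correlations share, and Plscr1 and Plscr2 correlated with each other at 0.805.

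Plscr1, Plscr2 and Plscr4 lie in 1 cluster on chromosome 9 together with Plscr5, which was not analysed here. In the order of protein-coding genes in the RefSeq annotation of GRCm38.p6, Plscr1 and Plscr2 are next to each other, 1700057G04Rik lies between Plscr2 and Plscr4, and Plod2 follows. Of 4 measured genes beside the cluster, 0 were called lower with either hairpin, where 9.23% and 13.3% of all genes were. Plod2, a collagen lysyl hydroxylase gene, rose with both hairpins (log2 differences 0.76 and 0.43, limma adjusted p = 5.66e-06 and 0.00091), as did Dipk2a (0.19 and 0.53, adjusted p = 0.0133 and 1.44e-06). Farther out on that side, Slc9a9 was below the filter and Chst2 rose with hairpin 1 (0.25, limma adjusted p = 0.0364) and was not called with hairpin 2 (0.11, 0.36). On the other side, Adamts7, Zic1 and Zic4 were below the filter, and Tbc1d2b rose with hairpin 1 (0.67, limma adjusted p = 6.67e-05) and was not called with hairpin 2 (0.10, 0.502). These neighbours were taken by position, after the member values had been seen.

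**Figure D3:**
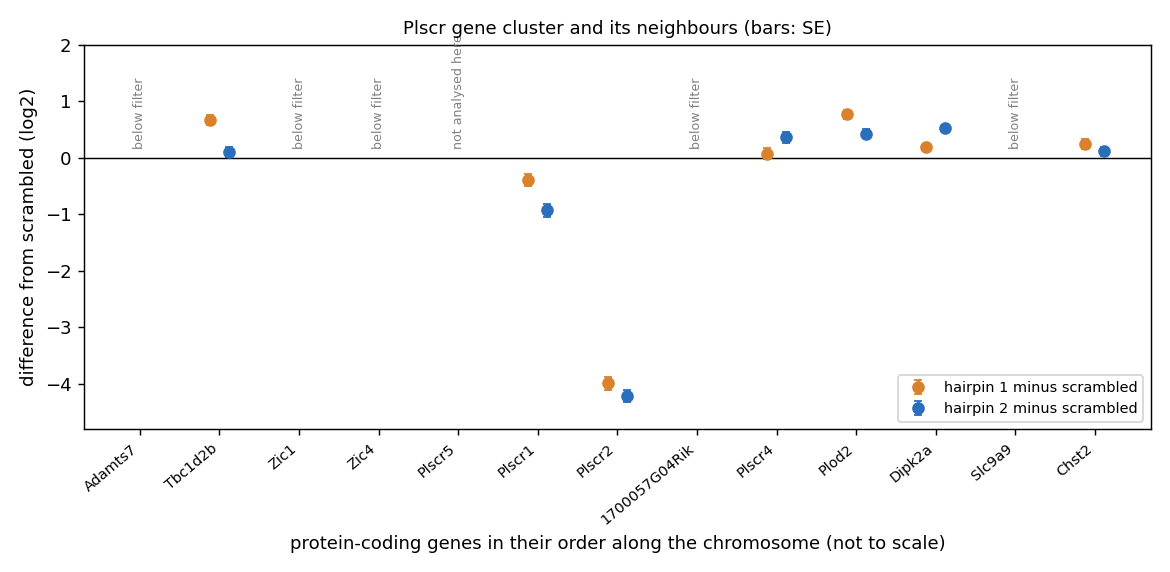
Log2 difference from scrambled of the protein-coding genes of the Plscr cluster and 4 genes on each side, in chromosomal order and not to scale; points are limma estimates and bars their standard errors. Plscr1 and Plscr2 are the points below 0 with both hairpins, and Plod2 and Dipk2a lie above 0.

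Other genes that move or read membrane lipids went both ways and are given by list. Beside each count stand the shares of all genes called: 23.7% higher and 9.23% lower with hairpin 1 (3023 and 1176 genes, against 2459 and 1700 after quantile normalization), and 21.5% higher and 13.3% lower with hairpin 2. The medians over all genes were 0.0675 and 0.0238. Genes called with only 1 hairpin are named here after their values were seen.

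Of 20 further scramblases and relatives, 7 were above the filter. With each hairpin 2 rose and 1 fell, with medians of 0.07 and 0.05. Ano8 and Ano10, anoctamins related to Ano6, rose with both hairpins (0.40 and 0.62, and 0.40 and 0.29). Vmp1, a scramblase of the endoplasmic reticulum that acts in autophagosome formation, fell with hairpin 1 (-0.19), and Atg9a, the autophagy scramblase gene, fell with hairpin 2 (-0.31).

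Of 18 flippase genes, 11 were above the filter, and 2 rose and 2 fell with hairpin 1 while 3 rose and 1 fell with hairpin 2 (medians 0.09 and 0.07). Atp10d, a flippase gene whose product has been linked to glucosylceramide transport, fell with both (-0.68 and -1.17, limma adjusted p = 1.42e-05 and 1.67e-08), from 11.36 on the scrambled arrays. It fell further with hairpin 2 in the direct test (-0.49, adjusted p = 0.000316). Atp11a, a phosphatidylserine flippase gene, rose with both (0.32 and 0.25). Atp10a fell (-0.70) and Atp11b rose (0.44) with hairpin 1, and Atp8b2 (0.35) and Atp8b4 (0.32) rose with hairpin 2. Tmem30a, the subunit that most flippases need to leave the endoplasmic reticulum, was not called (-0.03 and 0.07).

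Of 6 transporters that export lipids, 5 were above the filter; 1 rose and 1 fell with hairpin 1, and 1 rose with hairpin 2 (medians 0.17 and 0.21). Abcc1 rose with both (0.18 and 0.32), and Abca1, the cholesterol exporter gene, fell with hairpin 1 (-0.16). Of 3 genes of phosphatidylserine metabolism (medians 0.04 and -0.13), the synthase gene Ptdss1 fell with hairpin 1 (-0.21) and was not called with hairpin 2 (-0.13) or between the hairpins (0.08, adjusted p = 0.513). Ptdss2 fell with hairpin 2 (-0.27) and was not called with hairpin 1 (0.06), and Pisd, the decarboxylase gene, was not called. The 2 partners that carry Xkr8 to the cell surface were both measured: Bsg, the basigin gene, rose with both hairpins (0.53 and 0.44, limma adjusted p = 9.5e-05 and 0.000416), and Nptn, the neuroplastin gene, fell with hairpin 1 (-0.44, adjusted p = 0.0259) and was not called with hairpin 2 (-0.05, 0.831).

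Of 17 genes for the recognition of exposed phosphatidylserine, 11 were above the filter, and 4 rose and 2 fell with hairpin 1 while 6 rose and 1 fell with hairpin 2 (medians 0.13 and 0.27). Gas6, a bridging protein that links phosphatidylserine to receptor kinases, rose with both (0.70 and 0.69, limma adjusted p = 2.05e-06 and 1.36e-06), from 12.52 on scrambled arrays. Its receptor genes gave different results. Mertk rose with both (0.36 and 0.70), Axl fell with hairpin 1 (-0.63, limma adjusted p = 8.84e-05) and was not called with hairpin 2 (-0.09, 0.509), and Tyro3 was not called with either. Pros1, the protein S gene and another ligand of these receptors, rose with hairpin 2 (0.98), as did Mfge8 (0.48), which bridges phosphatidylserine to integrins, and Itgb3 (1.13). The integrin gene Itgb5 rose with both (0.34 and 0.27), Itgav rose with hairpin 1 and fell with hairpin 2 (0.65 and -0.31), and the scavenger receptor gene Stab2 fell with hairpin 1 (-0.35).

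**Figure D4:**
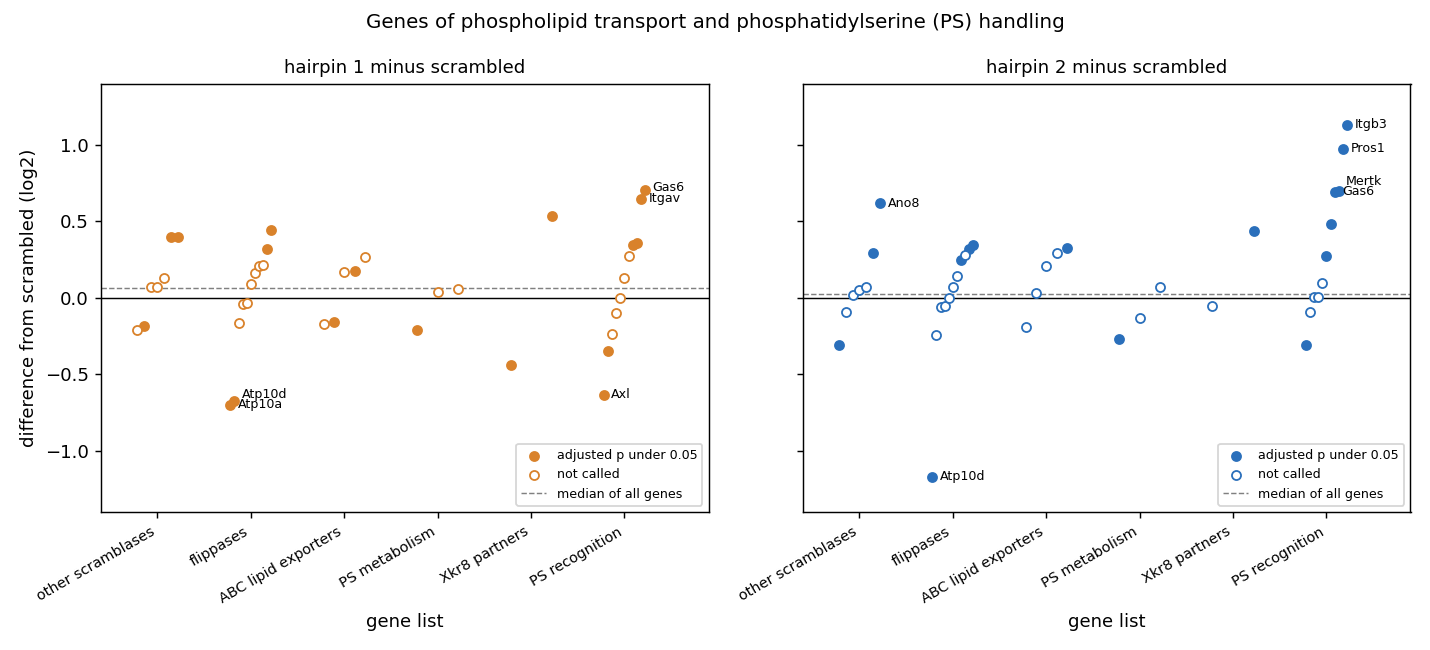
Log2 difference from scrambled of the genes above the filter in 6 lists of phospholipid transport and phosphatidylserine handling, for hairpin 1 and hairpin 2; filled points have a limma adjusted p below 0.05, open points do not, and the dashed line is the median of all genes tested. Points lie on both sides of 0 in most lists; Atp10d is the lowest with hairpin 2 (-1.17) and Itgb3 the highest (1.13).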

How the data were processed

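Expression was measured on 9 arrays of 3T3-L1 adipocytes, 3 per group. The authors deposited log2 values made with RMA (version not given in the sources used here), as the submitters' processing notes name it. RMA removes background, usually gives all arrays 1 distribution and combines the probes of each set into 1 value, and it compresses differences near the floor. The deposited arrays did not share 1 distribution (medians 6.31 to 6.38), so quantile normalization was run as an alternative. RNA was amplified and biotin-labelled with a NuGEN kit, per the labels' protocols. Of 45101 probe sets, 64 controls were left out, 34945 name 1 gene symbol, 932 several and 9160 none, in a platform annotation that can be old. Of 18194 pairs of symbol and Entrez identifier, 18032 were found in a GRCm38.p6 gene table, with 0 symbols to update; 0 value columns lacked a sample, and 0 pairs of arrays were identical.

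Using lmFit and eBayes with a trend, limma 3.58.1 under R 4.3.3 fitted the 3 group means on the 9 arrays together, over the 12735 genes whose mean reached the 30th percentile, and likewise over probe sets. P-values are two-sided, with Benjamini-Hochberg adjustment. The tests were checked on simulated data in which each gene had the same spread in all groups. In the data the median SD was 0.066 with scrambled, 0.118 with hairpin 1 and 0.093 with hairpin 2. That check did not cover such unequal spread. The number of arrays, 3 a group, limits precision. The genes, lists, naming rule (members, Ebf1, up to 4 genes per list called with both hairpins, the 5 genes most alike) and tests were chosen with earlier results of these data known. Alternatives for the probe sets not used for a gene were added after seeing the data. Some arrays with the same repeat number matched each other best and others did not (correlations of deviations -0.29 to 0.25). With 3 arrays a group, that check cannot settle whether the arrays were paired.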

Additional observations from a re-analysis of the deposited data

Results flagged for a closer look

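For 3 of the genes chosen by name, the difference from scrambled was not the same with both hairpins, by the direct test of hairpin 2 against hairpin 1. Plscr1 was lower with hairpin 2, by -0.53 (limma adjusted p = 0.00155; lower on 3 of 3 arrays), while its other probe set gave -0.11. Plscr4 was higher with hairpin 2 by 0.28 on the probe set used for the gene (adjusted p = 0.0462) and by 0.97 on its other probe set (adjusted p = 2.86e-05). The arrays of the hairpins did not overlap on either Plscr4 probe set, by a narrow margin on the first. Xkr8 was higher with hairpin 2 by 0.30 (adjusted p = 0.0184; higher on 3 of 3 arrays), while its other probe set gave 0.0082 (adjusted p = 0.975) and the mean of both 0.16, which was not called (adjusted p = 0.174). Leaving out each array in turn, these values ran from -0.61 to -0.41 for Plscr1, from 0.21 to 0.36 and from 0.90 to 1.03 for the Plscr4 probe sets, and from 0.22 to 0.36 for Xkr8. Each of the 3 calls on the probe set used for the gene was lost under some alternative. The highest limma adjusted p was 0.162 for Plscr1, 0.181 for Plscr4 and 0.174 for Xkr8. The call on the other Plscr4 probe set was kept (highest 0.000301).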

How the results depend on the processing

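Of 446 recomputed values for the 24 comparisons of the 6 genes, 386 were counted as unchanged, 32 lost a call, 14 gained one and 14 changed sign. For the tested genes, unchanged means the same direction and call. For Plscr2, which has no call, it means the same direction and a shift smaller than its SD within groups. All Plscr2 values are among the 386 and say nothing about calls. Over the alternatives run, the Plscr2 difference was -4.12 to -3.88 (hairpin 1) and -4.33 to -4.11 for hairpin 2; it has no value with a filter at the 50th percentile. Plscr1 stayed lower with both hairpins, and its hairpin 1 difference was -0.45 to -0.35 with each array left out.

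With all probe sets of a gene averaged, Ano6 gave -0.011 (hairpin 1, no call), 0.14 (hairpin 2, sign changed) and 0.063 (mean of both hairpins, sign changed). So averaged, Plscr4 gave -0.36 with hairpin 1 and -0.044 with the mean of both. Plscr3 gave 0.056 with hairpin 1 and 0.22 (called) with hairpin 2, and Xkr8 0.019 with hairpin 1 and 0.16 (call lost) between hairpins. Plscr1, whose average includes 1457824_at below the filter, gave -0.17 (call lost) between hairpins. Array quality weights gave -0.0059 (Ano6) between hairpins, 0.015 (Plscr3) and 0.014 (Xkr8) with hairpin 1, calls for Xkr8 (0.22) and Ano6 (-0.16) with hairpin 2 and for Plscr4 with the mean of both (0.22), and 7460 called genes in place of 4199 with hairpin 1 and 5990 in place of 3702 between hairpins. Quantile normalization gave -0.014 for Plscr4 with hairpin 1 and calls for Ano6 with hairpin 2 (-0.18, also with equal medians) and Plscr3 between hairpins (0.19). It turned the split with hairpin 1 from 3023 higher and 1176 lower to 2459 and 1700. For Xkr8's other probe set, the difference between hairpins (0.0082) was -0.051 with weights and ran from -0.11 to 0.066 with each array left out. The cause was not tested.

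At unchanged values, Ano6 with hairpin 1 (-0.20) lost its call with no filter, without the trend, with 2 groups only and with the replicate block; its mean over hairpins (-0.18) without the trend. Plscr4 between hairpins (0.28) lost it with no filter and with 2 groups only, and Xkr8 (0.30) with 2 groups only, a fit that called Xkr8 (0.22) and Ano6 (-0.17) with hairpin 2. The replicate block left 4281 genes called with hairpin 1, 4470 with hairpin 2 and 3761 between them, called Plscr4 with the mean of both (0.22) and Ano6's other probe set between hairpins (0.27), and lost Plscr3's other probe set with hairpin 2 (0.31). The arrays share only a number, and not every array correlated best with its own number.

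With each array left out, Ano6 ran from -0.24 to -0.13, -0.21 to -0.13, -0.23 to -0.15 and -0.036 to 0.067 (hairpin 1, hairpin 2, mean of both, between hairpins); Plscr3 with hairpin 1 from -0.026 to 0.029; Plscr4 with hairpin 2, the mean and between hairpins from 0.28 to 0.43, 0.18 to 0.26 and 0.21 to 0.36; and Xkr8 with hairpin 2 and between hairpins from 0.20 to 0.23 and 0.22 to 0.36. Signals near the floor bound what can be said of Plscr2.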
